A study of Mus musculus with 14 samples.

Results

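The interferon inducible GTPases examined here were 10 genes chosen by their symbols from a table of 46904 genes: the guanylate binding proteins Gbp2, Gbp3, Gbp5, Gbp6 and Gbp7, and the immunity related GTPases Igtp, Irgm1, Irgm2, Iigp1 and Ifi47. All 10 were in the table and all 10 passed the filter on low values. Polyadenylated RNA was sequenced from brain hemispheres of male mice aged 12 weeks, 48 h after a 20 min occlusion of the middle cerebral artery (MCAO), a model of ischemic stroke. The contralateral hemisphere (CL, healthy side) and the ischemic hemisphere (MCAO) were taken from wild-type mice (Cort+/+) and from mice without the neuropeptide cortistatin (Cort-/-), all operated, giving 3 Cort+/+ CL, 3 Cort+/+ MCAO, 3 Cort-/- CL and 5 Cort-/- MCAO libraries. The knockout is present in every cell from conception, and a whole hemisphere holds lesioned and spared tissue together. The labels do not tie a CL library to the MCAO library of the same animal.

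Levels are given as RPKM, in which read numbers are divided by the size of the library and the length of the gene, so that genes can be compared with each other. The libraries held 25991113 to 43034552 reads on genes. The GTPases rested on 11 reads (Ifi47, Cort-/- CL replicate 3, exact 95% Poisson interval 5.49 to 19.7 reads) to 1482 reads (Irgm1, Cort-/- MCAO replicate 1), and such intervals cover counting error only. Cort had 64 to 139 reads in every Cort+/+ library and 0 to 4 reads in every Cort-/- library, as the labels say. Summed neuronal markers were between 1490 and 2070 RPKM in every library, as brain tissue should give.

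Both families are large or mid-sized GTP-binding proteins made at low levels in resting cells and induced by interferons, above all by interferon gamma. Guanylate binding proteins assemble on the membranes of vacuoles that hold bacteria or parasites and on bacteria set free in the cytosol, and they help caspases that drive pyroptosis to reach bacterial products. Immunity related GTPases attack the same vacuoles. The regulators Irgm1, Irgm2 and Igtp sit on the cell's own membranes and hold the effectors, such as Iigp1 and Ifi47, inactive there. In the brain, microglia, astrocytes and endothelial cells can all make them.

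In the GRCm39 genome (GENCODE M39), Gbp5, Gbp7, Gbp3 and Gbp2 lie in a 144.0 kb stretch of chromosome 3 on the plus strand, chr3:142199739-142343779. Gbp6 lies on chromosome 5 on the minus strand, chr5:105418568-105443751. Irgm1 (minus strand, chr11:48752795-48763164), Ifi47 (plus strand, chr11:48967412-48987813), Igtp (plus strand, chr11:58089840-58098417) and Irgm2 (plus strand, chr11:58090444-58113615) are on chromosome 11, and Iigp1 is on chromosome 18. The Igtp and Irgm2 models overlap on the same strand, and the starts of their canonical transcripts are 325 bases apart. All are protein-coding genes.

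Some reads cannot be given to one GTPase alone. Of all 100-base windows in the annotated transcripts, Gbp6 shared 53.6% with other genes, mainly with the overlapping model Gm43302 that runs over Gbp6 and Gbp10, and Gbp7 shared 8.68%, mainly with the processed pseudogene Gm43802. Igtp shared 3.06% and Irgm2 4.08%, with each other. The remaining members shared under 0.5%, and Gbp2, Irgm1 and Iigp1 shared none. How the authors' counting treated such reads is not given in the sources used here, so the level of Gbp6 is uncertain. Gm43302 itself was between 0.162 and 0.256 RPKM in the CL libraries and between 0.322 and 1.2 RPKM in the MCAO libraries, without overlap.

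Because the members move together, the DNA in front of them is shown for 4 of those where a letter match to an interferon motif was found before or at the transcript start. A pair of motifs was searched on both strands from 250 bases before to 50 bases after the canonical start. They were the gamma-activated site TTCNNNGAA, the same on both strands, and the core of the interferon-stimulated response element GAAANNGAAA, bound by IRF proteins. The first was in 5 of the 10 members and in 8.81% of 21751 protein-coding promoters. The second was in 7 of the 10 members and in 3.83% of all promoters. Both were in 5 members (Gbp5, Gbp7, Irgm2, Iigp1 and Ifi47) and in 0.565% of all promoters. Gbp3, Gbp6 and Igtp had no match in this window, and Gbp2 had a single match of the second motif after the start. Other annotated starts were not searched, and the models of Gbp3, Gbp5 and Gbp6 begin further upstream than the canonical start. The members were chosen as interferon inducible genes, so nothing is drawn from these shares, and a match is not a shown binding site.

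The 150 bases that precede the canonical start are printed 5′ to 3′ on the gene's strand (GRCm39, chr3:142202384-142202533 plus strand for Gbp5, chr3:142235894-142236043 plus strand for Gbp7, chr11:48762248-48762397 minus strand for Irgm1 and chr11:58090294-58090443 plus strand for Irgm2). Capitals mark matches that lie whole in the printed stretch.
Gbp5: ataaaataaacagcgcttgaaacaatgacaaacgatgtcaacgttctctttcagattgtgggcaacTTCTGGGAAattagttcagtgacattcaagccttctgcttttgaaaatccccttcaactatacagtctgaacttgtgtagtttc
Gbp7: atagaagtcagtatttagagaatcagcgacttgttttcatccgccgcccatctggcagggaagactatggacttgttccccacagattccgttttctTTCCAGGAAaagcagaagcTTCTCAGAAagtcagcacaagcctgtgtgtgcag
Irgm1: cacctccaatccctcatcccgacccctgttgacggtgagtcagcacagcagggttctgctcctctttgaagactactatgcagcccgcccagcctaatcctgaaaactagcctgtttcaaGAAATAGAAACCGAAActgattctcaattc
Irgm2: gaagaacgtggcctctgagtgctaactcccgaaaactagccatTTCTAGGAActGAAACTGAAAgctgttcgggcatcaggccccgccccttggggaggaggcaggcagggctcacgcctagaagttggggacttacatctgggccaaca

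In Gbp5 the gamma-activated site began 84 bases before the start, and the second motif, from 4 bases before the start, ran past the printed end. Gbp7 had a pair of gamma-activated sites, and its second motif began at the start itself and is not printed. In Irgm1 the capitals are a pair of overlapping matches of the second motif, which began 30 and 24 bases before the start. In Irgm2 the gamma-activated site was followed, after a gap of a few bases, by the second motif. Among 21 relatives with a promoter window, 7 had the first motif, 9 the second and 7 both, among them Tgtp1, Tgtp2 and Gm12185. Tgtp1 and Gm12185 have the same canonical start, so that 1 window was counted for both.

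In every member, every ischemic library was above every contralateral library of the same genotype, in Cort+/+ and in Cort-/- mice alike. Over all genes tested, 5.73% were ordered in this way in Cort+/+ mice and 4.85% in Cort-/- mice. In a hemisphere, more cells of a type that makes a transcript and more transcript per cell cannot be told apart.

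Among the guanylate binding proteins, Gbp2, which is prenylated and anchors to membranes, was at 1.14, 0.885 and 1.03 RPKM in Cort+/+ CL replicates 1 to 3 and at 2.5, 6.87 and 2.2 RPKM in Cort+/+ MCAO replicates 2 to 4. In Cort-/- mice it was at 0.922, 1.28 and 1.02 RPKM in the CL libraries and at 6.83, 3.38, 2.42, 7.68 and 5.73 RPKM in MCAO replicates 1 to 5. The contralateral libraries were thus close together, and the ischemic libraries were spread over a 3.17-fold range in Cort-/- mice and a 3.13-fold range in Cort+/+ mice, with Cort+/+ replicate 3 and Cort-/- replicates 1, 4 and 5 high. Its difference between MCAO and CL on the log2(RPKM + 0.1) scale was 1.64 ± 0.44 (SE, adjusted p = 0.275) in Cort+/+ and 2.07 ± 0.39 (adjusted p = 0.0223) in Cort-/- mice.

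Gbp3 was at 0.839, 0.871 and 0.886 RPKM in Cort+/+ CL and at 2.28, 5.93 and 1.68 RPKM in Cort+/+ MCAO libraries. Its Cort-/- values were 0.94, 0.66 and 0.809 RPKM in CL and at 6.63, 3.84, 1.77, 4.99 and 6.64 RPKM in MCAO libraries. The same 4 ischemic libraries were the high ones. Gbp3 had the largest difference of the 10 in Cort-/- mice, 2.31 ± 0.42 (adjusted p = 0.0192), a 4.95-fold change on this scale with a 95% interval of 2.65 to 9.24. In Cort+/+ mice it was 1.61 ± 0.47 (adjusted p = 0.324).

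Gbp5, another prenylated member, known to promote inflammasome assembly, was lower throughout. It was at 0.388, 0.663 and 0.482 RPKM in Cort+/+ CL and at 1.01, 1.59 and 0.698 RPKM in Cort+/+ MCAO libraries, where the lowest ischemic value nearly met the highest contralateral one. The Cort-/- values were 0.57, 0.404 and 0.344 RPKM in CL and at 1.84, 1.21, 0.991, 1.9 and 1.73 RPKM in MCAO libraries, a wider gap. The difference was 1.58 ± 0.27 in Cort-/- mice, with the lowest adjusted p of the members (0.0163), and 0.93 ± 0.3 in Cort+/+ mice (adjusted p = 0.381). Gbp5 passed in 12 of the 14 fits that left out 1 library.

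Gbp6 ranged from 0.381 to 0.555 RPKM in CL and from 0.732 to 2.3 RPKM in MCAO libraries of Cort+/+ mice, and from 0.415 to 0.52 RPKM in CL and 0.916 to 2.47 RPKM in MCAO libraries of Cort-/- mice. Gbp7 ranged from 0.767 to 0.893 and 1.01 to 2.79 RPKM in Cort+/+ mice, and from 0.728 to 0.803 and 1.22 to 3.04 RPKM in Cort-/- mice. Both rose in Cort-/- mice, Gbp6 by 1.66 ± 0.34 (adjusted p = 0.0285) and Gbp7 by 1.39 ± 0.31 (adjusted p = 0.0427) on the log2 scale, and neither passed in Cort+/+ mice (1.21 and 0.78, adjusted p = 0.355 and 0.606).

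**Figure D1:**
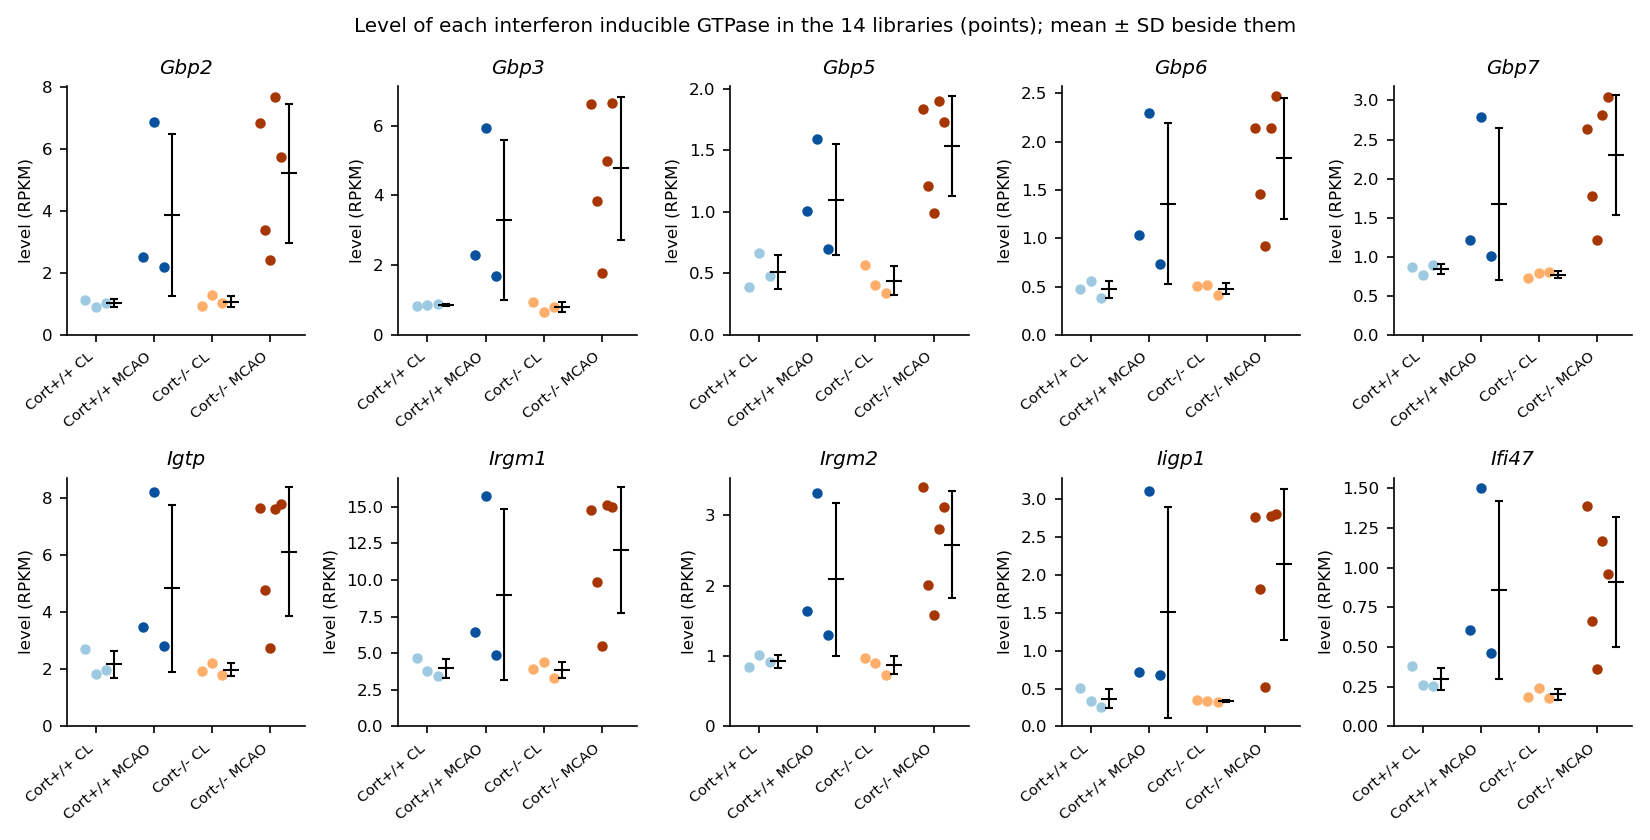
Level of each GTPase in RPKM (vertical axes, each from 0, scaled per gene) in the 14 libraries, by group. Points are libraries in replicate order and the black mark beside them is the mean ± SD (n = 3, 3, 3 and 5). In each panel every MCAO point is above every CL point of its genotype, and the MCAO points are spread far more widely.

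Of the regulatory immunity related GTPases, Irgm1, which guards lysosomal and Golgi membranes, was the most abundant of the 10 in every group. It was at 4.7, 3.76 and 3.41 RPKM in Cort+/+ CL and at 6.43, 15.7 and 4.86 RPKM in Cort+/+ MCAO libraries. In Cort-/- mice it was at 3.91, 4.38 and 3.3 RPKM in CL and at 14.8, 9.83, 5.48, 15.1 and 15 RPKM in MCAO libraries. Cort+/+ MCAO replicate 4 and Cort-/- MCAO replicate 3 were only just above the contralateral range, while the high libraries were near 15 RPKM. The difference was 0.99 ± 0.41 in Cort+/+ (adjusted p = 0.571) and 1.53 ± 0.37 in Cort-/- mice (adjusted p = 0.06), so it passed in neither genotype alone.

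Igtp, the regulator found on the endoplasmic reticulum, was at 2.7, 1.82 and 1.99 RPKM in Cort+/+ CL and at 3.49, 8.19 and 2.83 RPKM in Cort+/+ MCAO libraries. In Cort-/- mice it was at 1.95, 2.22 and 1.8 RPKM in CL and at 7.65, 4.77, 2.75, 7.62 and 7.77 RPKM in MCAO libraries. The 4 high libraries again lay close together. The difference was 0.99 ± 0.4 (adjusted p = 0.563) in Cort+/+ and 1.48 ± 0.36 (adjusted p = 0.0626) in Cort-/- mice.

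Irgm2, whose transcript starts inside the Igtp model, was at 0.837, 1.02 and 0.915 RPKM in Cort+/+ CL and at 1.64, 3.32 and 1.3 RPKM in Cort+/+ MCAO libraries. Without cortistatin it was at 0.975, 0.905 and 0.736 RPKM in CL and at 3.4, 2.01, 1.58, 2.8 and 3.12 RPKM in MCAO libraries. It was the only regulator to pass in Cort-/- mice, with a difference of 1.42 ± 0.28 (adjusted p = 0.0262), and its value in Cort+/+ mice was 0.99 ± 0.31 (adjusted p = 0.36). Its standard error (0.28) was below those of Irgm1 (0.37) and Igtp (0.36).

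Of the effectors, Iigp1, which helps to break the vacuole around Toxoplasma, was at 0.502, 0.333 and 0.257 RPKM in Cort+/+ CL and at 0.72, 3.11 and 0.682 RPKM in Cort+/+ MCAO libraries. The knockout values were 0.352, 0.336 and 0.326 RPKM in CL and at 2.77, 1.82, 0.52, 2.78 and 2.8 RPKM in MCAO libraries. It had the widest spread of the members among ischemic libraries, 4.56-fold in Cort+/+ and 5.39-fold in Cort-/- mice. The difference was 1.49 ± 0.59 (adjusted p = 0.546) and 2.16 ± 0.53 (adjusted p = 0.0643).

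Ifi47 was the least abundant in every group. It was at 0.381, 0.262 and 0.257 RPKM in Cort+/+ CL, at 0.607, 1.5 and 0.464 RPKM in Cort+/+ MCAO, at 0.185, 0.24 and 0.181 RPKM in Cort-/- CL and at 1.39, 0.661, 0.363, 1.17 and 0.958 RPKM in Cort-/- MCAO libraries. Cort-/- MCAO replicate 3 lay below Cort+/+ CL replicate 1 for this gene. The difference was 1.12 ± 0.43 (adjusted p = 0.515) in Cort+/+ and 1.63 ± 0.38 (adjusted p = 0.0523) in Cort-/- mice.

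In the counts given here, rose means a positive difference with an adjusted p under 0.05. Counted together, 6 of the 10 members rose in Cort-/- mice (all 5 guanylate binding proteins and Irgm2), where 1.34% of the 46102 genes tested rose. Igtp, Irgm1, Iigp1 and Ifi47 were also higher, by 1.48 to 2.16, with adjusted limma p of 0.0523 to 0.0643. The median log2 difference of the 10 was 1.61 (1.39 to 2.31) against 0 over all genes. None passed in Cort+/+ mice, where 0.00868% of genes rose and where all 10 had an unadjusted limma p under 0.05, as had 7.87% of genes in either direction, and a median of 1.06 (0.78 to 1.64). Averaged over both genotypes, all 10 rose, with a median of 1.32 (1.09 to 1.96) and adjusted p between 0.00482 (Gbp2) and 0.0255 (Igtp and Irgm1), where 2.52% of genes rose. The count of 6 depended on single libraries, and the share of all genes that rose moved with it. Leaving out Cort-/- CL replicate 2 or 3 gave 0 calls (0.535% and 0.219% of genes rose). Without replicate 1 of the Cort-/- CL or the Cort-/- MCAO group there was 1 call (0.18% and 0.482%). Without Cort-/- MCAO replicate 4 or 5 there were 2 (0.548% and 0.586%). Without replicate 3 of the Cort-/- or the Cort+/+ ischemic group there were 10 (2.1% and 1.52%). When only the groups compared were fitted, 0 were called, and 0.132% of genes rose. The count of 10 for the mean of both genotypes became 5 when Cort-/- CL replicate 1 was left out (1.65% of genes rose). It became 6 when Cort+/+ CL replicate 2 or 3 was (1.93% and 1.74%).

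The genotypes were not told apart. In the contralateral hemisphere the median log2 difference between Cort-/- and Cort+/+ mice was −0.09 (−0.4 for Ifi47 to 0.06 for Gbp2) and no member passed, with 0 at an unadjusted limma p under 0.05, against 3.91% of all genes (0.00217% of genes passed as higher). In the ischemic hemisphere all 10 members were higher on average in Cort-/- mice, by a median of 0.49 (0.12 for Ifi47 to 0.62 for Iigp1), and again none passed (adjusted p = 1 for each, 0 at an unadjusted p under 0.05 against 3.82% of genes, 0.00434% of genes higher). The values of the groups overlapped for every member, since Cort+/+ MCAO replicate 3 was among the 4 highest libraries for all of them. The 95% intervals of this difference reached from 0.61-fold to 1.93-fold for Ifi47 and from 0.927-fold to 2.08-fold for Gbp5. The difference in response between genotypes (interaction) had a median of 0.53 (0.43 to 0.7) with no member past the threshold (adjusted p = 1, 0 at an unadjusted p under 0.05 against 3.31% of genes, 0.00217% of genes higher). A 2-fold difference lay inside the interval of the genotype difference under MCAO for 8 members, so its absence is not shown. Leaving out Cort+/+ MCAO replicate 3 moved the median from 0.49 to 0.92, and leaving out replicate 4 of that group moved it to 0.18.

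**Figure D2:**
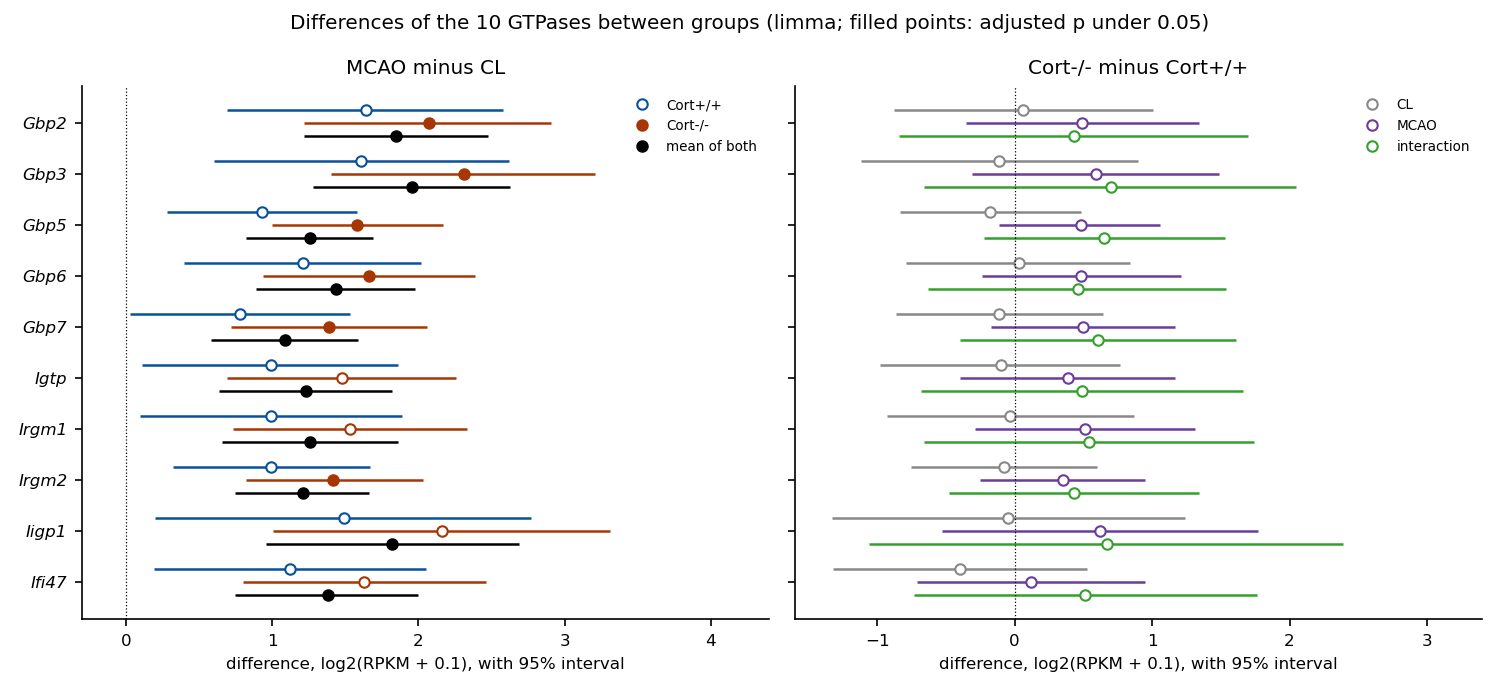
Differences between groups on the log2(RPKM + 0.1) scale (horizontal axes) for each GTPase, with 95% intervals from limma. The left panel gives MCAO minus CL in Cort+/+, in Cort-/- and as the mean of both, and the right panel gives Cort-/- minus Cort+/+ in each hemisphere and the interaction. Filled points have an adjusted p under 0.05, which 6 members reached in Cort-/- and 10 in the mean of both, and every interval in the right panel spans 0.

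The 10 genes kept nearly the same order of libraries. Ranked from high to low over the 8 ischemic libraries, Cort-/- replicates 1, 4 and 5 and Cort+/+ replicate 3 took the first 4 places for all 10 members. Cort-/- replicate 2 was 5th for every member, Cort+/+ replicate 2 was 6th, and Cort-/- replicate 3 and Cort+/+ replicate 4 shared the last places. The mean log2 difference of the members from the 6 CL libraries was 2.12, 1.42, 0.7, 2.06 and 2.07 in Cort-/- MCAO replicates 1 to 5 and 0.92, 2.14 and 0.61 in Cort+/+ MCAO replicates 2 to 4, against −0.16 to 0.15 among the CL libraries. Their summed RPKM was 4.5, 2.77, 1.62, 4.41 and 4.43 times the CL mean in the Cort-/- libraries and 1.88, 4.61 and 1.48 times in the Cort+/+ libraries. High and low libraries therefore occurred in both genotypes, 3 of 5 at over 4 times the CL mean in Cort-/- and 1 of 3 in Cort+/+ mice. Pearson's r between 2 members on the log2 scale was 0.91 to 0.99 over the 14 libraries (45 pairs) and 0.87 to 1 over the 8 ischemic ones. This is a description over libraries that differ in depth and, for all 14, also in side.

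The sums of microglial, of monocyte and macrophage, and of astrocyte markers were highest in the same 4 libraries. Those of endothelial, neutrophil and T and NK cell markers were not. Summed RPKM of 6 microglial markers was 52.6 to 57.6 in CL libraries, 66.2 in Cort+/+ MCAO replicate 4, 71.9 in Cort-/- MCAO replicate 3, 84.1 in Cort-/- MCAO replicate 2, 87.7 in Cort+/+ MCAO replicate 2, and 90.9 to 105 in the 4 libraries where the GTPases were highest. In Cort-/- mice 3 of the 6 rose (Cx3cr1, Csf1r and Aif1). Summed RPKM of 6 monocyte and macrophage markers was 0.599 to 2.04 in CL libraries, 0.883 to 2.16 in the 4 lower MCAO libraries and 3.96 to 9.1 in the 4 higher ones, and none of the 6 passed in Cort-/- mice. Only 1 of the 6 averaged at least 0.5 RPKM, and Chil3 had the highest mean of them under MCAO (1.94 RPKM in Cort+/+ and 2.32 RPKM in Cort-/- mice). Single markers could differ from the sum, since Ccr2 was at 0.127 RPKM in Cort-/- MCAO replicate 5 and at 0.134 RPKM in replicate 3. Summed astrocyte markers were 487 to 662 RPKM in CL libraries, 575 to 707 RPKM in the 4 lower and 740 to 805 RPKM in the 4 higher MCAO libraries. Of these 5 markers Gfap (1.96) and Aqp4 (0.68) rose in Cort-/- mice, and Aldh1l1 (0.47), Aldoc (−0.08) and Slc1a3 (−0.16) did not pass. Summed endothelial markers were 26 to 37.1 RPKM in CL and 36.4 to 51.5 RPKM in MCAO libraries, with the lowest of these in Cort-/- MCAO replicate 5, where the GTPases were high, and 2 of 6 rose (Cdh5 and Kdr). Summed T and NK cell markers were 3.56 to 4.93 RPKM in CL and 0.994 to 3.04 RPKM in MCAO libraries. Most of this sum was Cd4, with a mean of 3.59 RPKM in Cort-/- CL and 1.26 RPKM in Cort-/- MCAO libraries. Only 1 of the 9 markers averaged at least 0.5 RPKM. In Cort-/- mice none of 9 passed as higher and Cd4 fell by 1.53 on the log2 scale, while 7 of the 9 had a positive difference (median 0.15). The defining Cd3e was at most 0.0917 RPKM in any library. Neutrophil markers summed to 2.36 to 9.5 RPKM in CL and 2.3 to 15.6 RPKM in MCAO libraries, with none of 6 called. None of 5 neuronal and 4 oligodendrocyte markers passed. Cort-/- MCAO replicate 3 also had the fewest reads (25991113). The part of these markers and of depth in the GTPase levels was not tested.

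**Figure D3:**
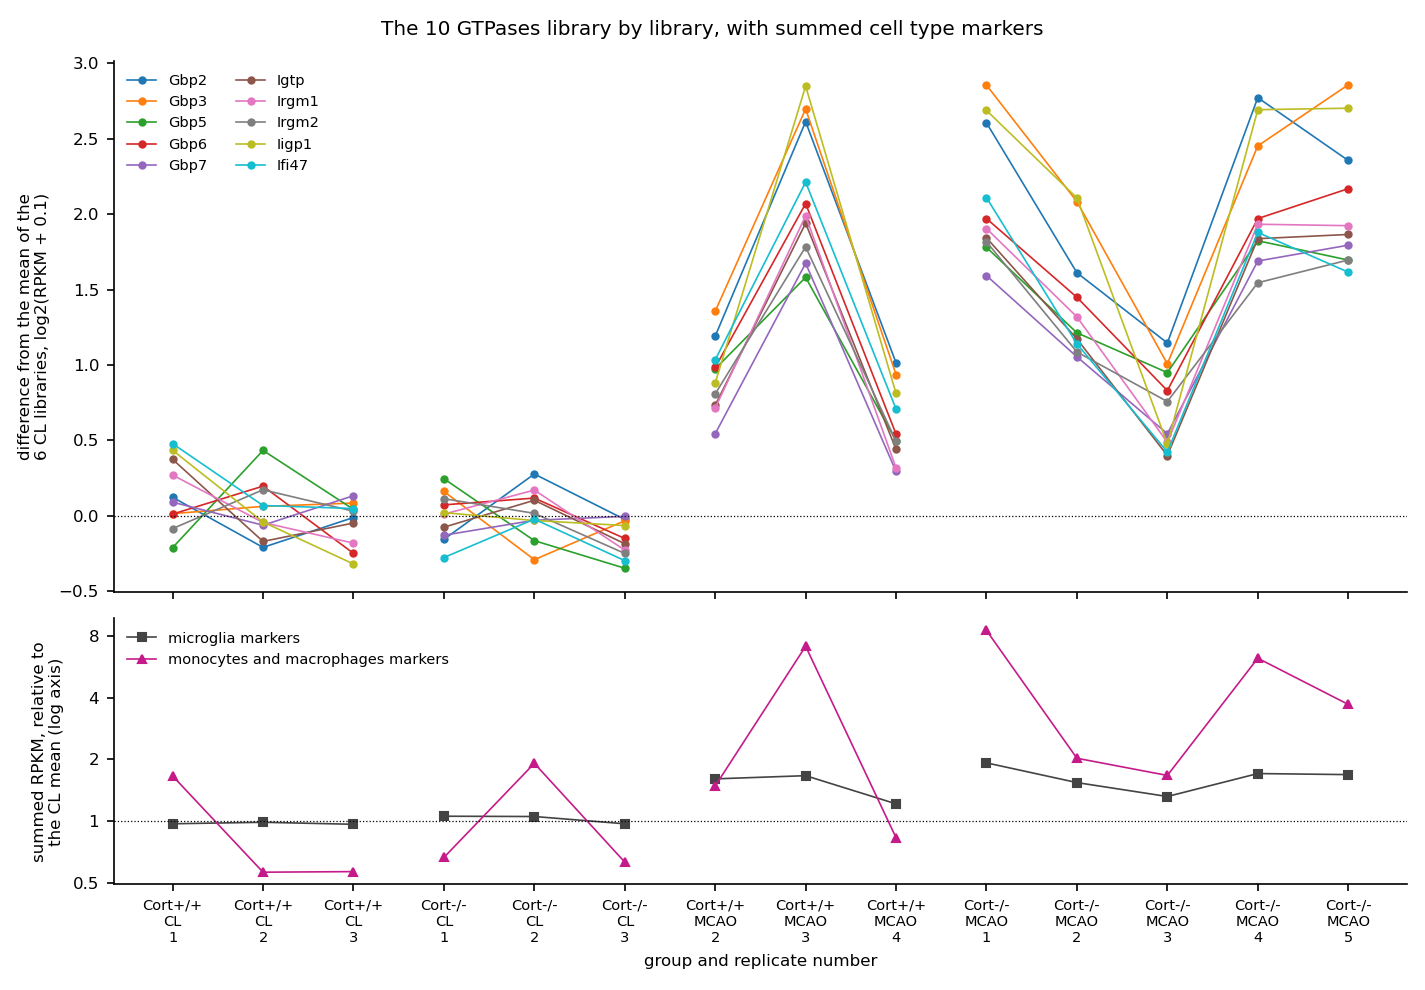
Upper panel, difference of each GTPase from its mean over the 6 CL libraries, in log2(RPKM + 0.1), for each library (horizontal axis, by group and replicate number; lines join libraries of a group only to make genes traceable). Lower panel, summed RPKM of 6 microglial and of 6 monocyte and macrophage markers relative to the CL mean, on a log axis. Cort+/+ MCAO replicate 3 and Cort-/- MCAO replicates 1, 4 and 5 are high for all 10 genes, with a mean difference of 2.06 to 2.14.

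In the contralateral hemisphere the order of levels was Irgm1, Igtp, Gbp2, Irgm2, Gbp3 and Gbp7 in both genotypes, followed by Gbp5, Gbp6, Iigp1 and Ifi47, with Gbp6 ahead of Gbp5 in Cort-/- mice. Irgm1 was 1.83 times Igtp in Cort+/+ and 1.94 times in Cort-/- mice without overlap, and Igtp was 2.13 and 1.85 times Gbp2 without overlap. From Gbp2 through Irgm2 and Gbp3 to Gbp7 each gene overlapped with the next. Gbp7 was above the gene that followed it without overlap, 1.65 times Gbp5 in Cort+/+ and 1.61 times Gbp6 in Cort-/- mice. Among Gbp5, Gbp6 and Iigp1, neighbours in the order overlapped, though Gbp5 was above Iigp1 in each of the 3 Cort-/- CL libraries. Iigp1 overlapped with Ifi47 in Cort+/+ mice, though it was above Ifi47 in each of the 3 CL libraries. In Cort-/- mice it was 1.67 times Ifi47 without overlap. Under MCAO the order of mean RPKM was Irgm1, Igtp, Gbp2, Gbp3, Irgm2, Gbp7, Iigp1, Gbp6, Gbp5 and Ifi47 in both genotypes. The ranges of all neighbours overlapped, since the libraries were so spread. Within single libraries, Irgm1 was above Igtp, Gbp3 above Irgm2 and Gbp5 above Ifi47 in 3 of 3 Cort+/+ MCAO libraries. The same held in 5 of 5 Cort-/- MCAO libraries. The other neighbours did not keep this order in every MCAO library.

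The make-up of the summed level shifted. Irgm1 made up 34.5% of it in Cort+/+ CL and 30.3% in Cort+/+ MCAO libraries, and 35.6% and 30.6% in Cort-/- mice. Gbp2 went from 8.94% to 12.9% and from 9.91% to 13.1%, Gbp3 from 7.65% to 10.9% and from 7.49% to 11.8%, and Iigp1 from 3.14% to 4.55% and from 3.14% to 5.14%. Gbp7 went the other way, from 7.42% to 5.8% and from 7.19% to 5.95%. These shares are means over libraries and were not tested.

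The relatives of the 10 were mostly too low to judge. Of 6 other guanylate binding proteins only Gbp9 had a mean of at least 0.5 RPKM. It was at 0.699, 0.623 and 0.535 RPKM in Cort-/- CL and at 1.6, 1.09, 1.09, 1.36 and 1.66 RPKM in Cort-/- MCAO libraries, and it was the only one of the list to rise there (1.01 ± 0.18, adjusted p = 0.0169). In Cort+/+ mice it was at 0.844, 0.86 and 0.839 RPKM in CL and at 1.16, 1.72 and 1.04 RPKM in MCAO libraries (0.54, adjusted p = 0.47). Gbp4, next on chromosome 5, differed by 0.87 in Cort-/- mice (adjusted p = 0.0784). The median of the list was 0.59 in Cort-/- and 0.29 in Cort+/+ mice. Gbp2b, which lies between Gbp3 and Gbp2, was at 0 in all 9 Cort+/+ and Cort-/- CL and Cort+/+ MCAO libraries and at most 0.00848 RPKM in the Cort-/- MCAO libraries, so a change in it was not detectable at this depth.

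Of 12 other immunity related GTPases measured, 1 rose in Cort-/- mice, Gm5431 (1.32 ± 0.3, adjusted p = 0.0455), and 4 in the mean of both genotypes (Tgtp2, Gm5431, 9930111J21Rik2 and Iigp1c). Their median was 0.81 in Cort-/- and 0.65 in Cort+/+ mice, and 11 of 12 had a positive value in each. Irgq, a relative that interferon does not induce and that binds autophagy proteins, was the only one with a mean of at least 0.5 RPKM. It was at 19 to 22.7 RPKM over all libraries and did not pass (−0.13, adjusted p = 0.242 in Cort-/- mice). The pairs Tgtp1 and Tgtp2 (at least 74.7% of windows shared) and 9930111J21Rik1 and 9930111J21Rik2 (70.5% and 47.1%) share so much sequence that reads may be split between them.

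Of the Mx and very large GTPases, Mx1 rose in Cort-/- mice, from 0.117, 0.111 and 0.0519 RPKM in CL to 1.8, 0.766, 0.535, 1.55 and 1.83 RPKM in MCAO libraries (2.74 ± 0.48, adjusted p = 0.0171). In Cort+/+ mice it was at 0.0927, 0.0875 and 0.0992 RPKM in CL and at 0.43, 1.94 and 0.359 RPKM in MCAO libraries (2.03, adjusted p = 0.273). The same libraries were high as for the 10 GTPases. Mx2 differed by 1.62 in Cort-/- mice (adjusted p = 0.174). The atlastins, GTPases of the same dynamin superfamily that shape the endoplasmic reticulum, had medians of −0.06 in both genotypes and none of 3 passed, with Atl1 between 18.2 and 23 RPKM.

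Genes upstream of the GTPases were examined by role. Of the interferon ligands 5 were in the table and 3 could be tested. Ifng, which encodes interferon gamma, had at most 1 read in any library and 0 in all 5 Cort-/- MCAO libraries. Ifna2 and Ifne had at most 1 read, and the only read of Ifnb1 was 1 in Cort-/- MCAO replicate 1. These transcripts were therefore too low to compare between groups at this depth. Of 6 receptor genes 2 rose in Cort-/- mice, Ifnar2, a chain of the type I receptor (0.42, adjusted p = 0.0296), and Il10rb, a chain shared with interleukin-10 and interferon lambda receptors (0.68, adjusted p = 0.0228). The receptor genes of interferon gamma did not pass, with Ifngr1 at 0.19 (adjusted p = 0.408) and Ifngr2 at 0.16 (adjusted p = 0.324).

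Of 11 signal transduction genes 2 rose in Cort-/- mice, Irf7 (3.04 ± 0.7, adjusted p = 0.0474) and Irf8, a factor of microglia and macrophages (1.19 ± 0.23, adjusted p = 0.0246), with a median of 0.66 there and of 0.36 in Cort+/+ mice. The kinases Jak1, Jak2 and Tyk2 had log2 differences between −0.09 and 0.08 in both genotypes. Irf1 differed by 0.73 in Cort-/- mice (adjusted p = 0.096). Of 6 feedback inhibitors, Usp18, which blocks the type I receptor, rose (2.9 ± 0.59, adjusted p = 0.0284), and Socs1 and Socs3 were at 0.52 and 1.5 (adjusted p = 0.473 and 0.0798).

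Of 12 other interferon gamma targets 4 rose in Cort-/- mice, with a median of 0.7. They were the chemokine Cxcl10 (3.57 ± 0.66, adjusted p = 0.0213), Nlrc5, which switches on MHC class I genes (2.06, adjusted p = 0.0359), and the immunoproteasome genes Psmb8 (1.82, adjusted p = 0.0415) and Psmb9 (1.5, adjusted p = 0.0359). Ido1 fell in the mean of both genotypes by 0.82 on the log2 scale (adjusted p = 0.0446), and Ciita, Serpina3g and Nos2 did not pass there. Of 12 type I interferon targets 6 rose in Cort-/- mice, with a median of 2.37 there and of 1.57 in Cort+/+ mice. Isg15, a ubiquitin-like modifier, rose most of these (3.52 ± 0.7, adjusted p = 0.0277), and the others were Oasl2 (3.03), Ifit1 (2.9), Ifi44 (2.84), Oas1a (2.73) and Ifit3 (2.52).

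Downstream, 4 of 8 inflammasome and pyroptosis genes rose in Cort-/- mice, Casp1 (1.09, adjusted p = 0.00904), Casp4 (1.51, adjusted p = 0.0392), the adaptor Pycard (1.3, adjusted p = 0.0231) and the pore former Gsdmd (1.04, adjusted p = 0.0174), and Nlrp3, Aim2, Il1b and Il18 did not pass. The machinery that guanylate binding and immunity related GTPases use to reach membranes had other values. None of 11 autophagy conjugation genes passed (medians 0.04 and 0.01 in Cort+/+ and Cort-/- mice) and none of 5 prenylation enzyme genes (0.02 and −0.06). With limma, no gene of the lists named here passed in Cort+/+ mice alone, and none passed in the interaction. The paper used another method, edgeR, and lists genes that it called between hemispheres in both genotypes. Gbp3, Gbp5, Irf7, Isg15, Ifit1 and Usp18 are among them.

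**Figure D4:**
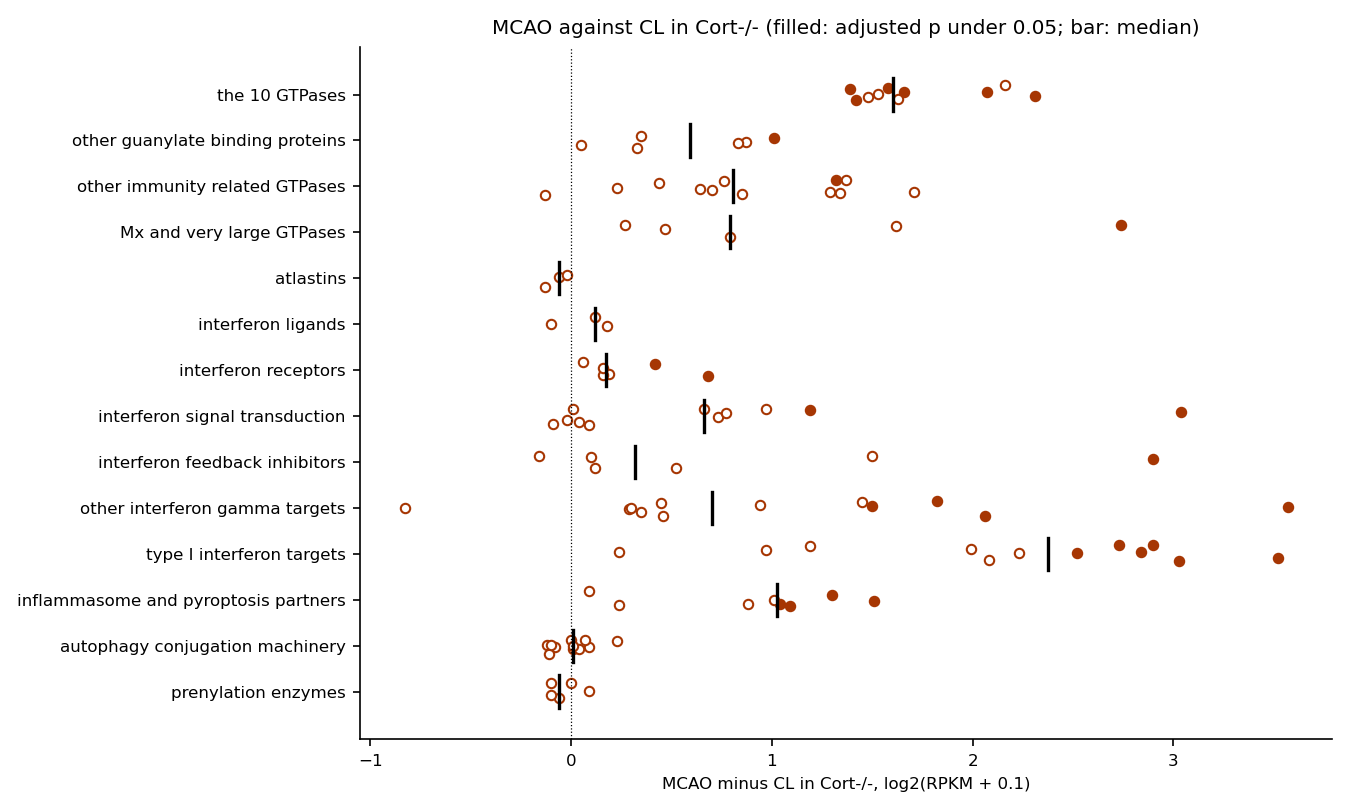
Difference between MCAO and CL in Cort-/- mice on the log2(RPKM + 0.1) scale (horizontal axis) for the 10 GTPases and for the genes of 13 related lists that could be tested (rows). Points are genes, filled where the adjusted p was under 0.05, and bars are list medians, 1.61 for the 10 GTPases, 2.37 for type I interferon targets and 0.01 for autophagy conjugation genes.

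Among 15055 other genes averaging 1 RPKM or more, the 10 whose log2 levels followed the mean standardized profile of the members most closely over the 14 libraries were Parp9 (r = 0.996), Rigi (0.994), Isg15 (0.991), Dtx3l (0.99), Zc3hav1, Ifit1 and Eif2ak2 (0.989 each), Trim25 and Fcgr1 (0.988 each) and Parp14 (0.987). Within the 8 ischemic libraries alone their r was 0.969 (Fcgr1) to 0.996 (Rigi). Parp9, at a mean of 1.79 RPKM, differed between hemispheres by 1 in Cort+/+ and 1.6 in Cort-/- mice, close to the medians of the GTPases, and Isg15 by 2.37 and 3.52. These values describe likeness over libraries that differ in depth and, for all 14, also in side, and carry no test.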

How the data were processed

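The authors prepared stranded poly(A) libraries from hemispheres, processed the reads with reanalyzerGSE on GRCm39 and the GENCODE M28 annotation and deposited RPKM values per gene and library, without pooling replicates. The aligner and the counting of shared reads are not given in the sources used here. The methods state 5 MCAO replicates and describe leaving replicates that did not group clearly out of variable comparisons. Only 3 Cort+/+ MCAO libraries (numbered 2 to 4) were available here, against 5 Cort-/- MCAO libraries. Whether Cort+/+ MCAO libraries were left out in this way is not stated. The smaller group bears on the counts called in Cort+/+ and in Cort-/- mice. Every value above 0 (100% of 495656, tolerance 1e-05 reads) came back as a whole number of reads, which gave the depth. Genes above 0 in at least 2 libraries (46102 of 46904) were fitted as log2(RPKM + 0.1) with limma 3.58.1 (R 4.3.3), 1 model of 4 groups with trended moderated variances, and Benjamini-Hochberg adjusted p over all genes under 0.05 was called. A fold change on this scale understates the change of low genes. The script was tested on simulated data with a fixed spread between libraries, lower than that of the members among the ischemic libraries. The simulation therefore does not show how many changes would be found at the spread of the members. Comparisons of hemispheres share libraries with those of genotypes.

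The 10 GTPases and the gene lists were chosen with earlier results of these data known. All 10 are named, and of each list the genes past the threshold in Cort-/- mice, or else up to 3 of the largest changes among those averaging 0.5 RPKM or more, could be named, and others with their values where a role is described. Some items are not reported here, and lists are counted without them. Positions, 100-base windows and promoters come from GENCODE M39. No 2 libraries of a group agreed within sampling noise (chi-square per gene 5.82 to 26.3). Alternatives were limma voom on recovered reads, pseudocounts of 0.01 and 1, no filter, only genes averaging 0.5 RPKM or more, TPM or quantile scaling, fits of the compared groups only, library weights, a replicate block and leaving out each library.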

Additional observations from a re-analysis of the deposited data

How the results depend on the processing

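No result changed sign past a threshold. The 10 GTPases kept positive differences between MCAO and CL in the comparisons of both genotypes, and 0 were called in Cort+/+ mice, in either comparison of genotypes and in the interaction under every alternative that gave a value (fits of the compared groups only give none for the interaction or the mean of both). The count of 6 called in Cort-/- mice became 3 with a pseudocount of 1 (median 1.03; 0.857% of all genes rose), 10 with only genes averaging 0.5 RPKM or more (5.14%) or with library weights (1.77%), and 0 when only the compared groups were fitted (0.132%), against 1.34% as reported. It ranged from 0 to 10 when 1 library was left out, while 0.18% to 2.1% of all genes rose. The count of 10 in the mean of both genotypes then ranged from 5 to 10, while 1.65% to 3.14% of all genes rose. With limma voom on the recovered reads the counts were 9 in Cort-/- (2.03% of genes rose) and 10 in the mean of both (3.14%).

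In the replicate block, libraries without a partner of the same number add nothing to the comparison of hemispheres. These were Cort-/- MCAO replicates 4 and 5, Cort+/+ CL replicate 1 and Cort+/+ MCAO replicate 4. With this block 0 were called in Cort-/- mice and 0 in the mean of both genotypes, and the median interaction was −0.14. No label says whether libraries of the same number came from the same animal, so pairing is neither shown nor excluded. Deviations of same-numbered Cort-/- CL and MCAO libraries correlated between −0.239 and 0.027. Of the 3 Cort-/- CL libraries, 0 correlated best with the MCAO library of their own number. In Cort+/+ mice r was 0.316 for number 2 and −0.141 for number 3. Such correlations cannot decide whether hemispheres came from the same mouse. No gene at all was called in these comparisons under the block, so the calls of the other lists and markers were lost too. The cause of these changes was not tested. Relatives under 0.5 RPKM and interferon ligands were limited by depth.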
